A study of Drosophila melanogaster with 8 samples.

Results

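A set of 10 short secreted peptide genes of immunity and stress was followed in RNA from Dh44 neurons of the Drosophila melanogaster brain: the Daisho genes Dso1 and Dso2, the Bomanin genes BomS1, BomS2, BomS3, BomS5, BomS6 and BomBc1, and the Turandot genes TotA and TotC. They were picked by name, after some of them had been seen to be abundant in these same libraries, and all 10 of 10 had a row among the 11773 genes. Their levels are therefore a description and carry no test. The study asked how the fly brain senses dietary amino acids, and all 8 libraries, numbered 1 to 8 in the titles, form a single group with no untreated or diet contrast. The flies carried DH44-GAL4 with UAS-mCD8gfp, so the cells to be picked were marked by a membrane green fluorescent protein wherever that driver is active. They were kept on normal food to an age of 5 days, the brains were dissected, and green cells were drawn up with a glass pipette. Single cells were pooled, according to one label, and individual cells were harvested, according to the series text, so how many cells or flies stand behind a library is not known. No label states the sex of the flies or whether they met an infection.

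Bomanins and Daisho are effectors of the Toll pathway. When fungi or Gram-positive bacteria are sensed in the hemolymph, a protease cascade activates the ligand Spätzle, the receptor Toll signals to the NF-kB factors Dif and Dorsal, and the fat body secretes these peptides into the blood. Flies without the main Bomanin cluster are highly susceptible to Gram-positive bacteria and fungi, and Daisho peptides act against filamentous fungi. Turandot proteins are secreted during heat, infection and other stresses, with the JAK-STAT and Mekk1 pathways as known inducers.

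Values are FPKM, a fragment measure scaled by exon length and by the mapped fragments of the library, so levels can be compared between genes per length. Summed FPKM ranged from 812029 to 935440, and the number of reads behind a value is unknown. Between 2518 genes (library 1) and 5256 genes (library 4) reached 1 FPKM. Library 1 and library 8 stood apart from the rest: over the 3152 genes whose mean log2(FPKM + 1) reached 3, called expressed here, the median gene differed from its median in the other libraries by -1.04 in library 8 and by -2.01 in library 1, on the log2(FPKM + 1) scale. Expressed genes listed at 0 in the library enter these medians. Neuronal markers were present throughout, 6 of 7 at 1 FPKM or more in library 8 and 7 of 7 in the others, with Dh44 at 26309 to 99818 FPKM and the 7 markers summing to 462 FPKM in library 8 and 962 to 1957 FPKM in libraries 1 to 7. The gene Tbp, which every cell uses, had no FPKM in 5 libraries, so a gene called listed at 0 is not taken to be absent.

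Most of the peptide genes were abundant in these libraries, and 7 of the 10 ranked between 5 and 181 of all 11773 genes by median FPKM. Together they held a median of 2.35% of summed FPKM, from 1.48% in library 6 to 8.16% in library 8. Of the 10 genes, 8 reached 1 FPKM in every library, beside 11.0% of all genes, and 9 did so in at least 4 libraries, beside 41.2% of all genes. The genes were chosen for being seen here, so these shares are given side by side only. Dso2 and BomS6 alone made up 71.6% to 84.6% of the members' summed FPKM.

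Dso2, which encodes a Daisho peptide, had the highest level of the set in all 8 libraries. Its lowest value was 7444 FPKM in library 6, its median 10578 FPKM and its highest 39937 FPKM in library 8. Library 8 lay far above the others, whose next value was 14413 FPKM in library 1. By median it was the fifth most abundant of all genes, and in library 8 it was the single most abundant one (rank 1). Its neighbour Dso1 encodes the other Daisho peptide. Dso1 ranged from 673 FPKM in library 7 through a median of 1053 FPKM to 2685 FPKM in library 8. Again library 8 was alone at the top, and the other 7 libraries lay at or below 1439 FPKM. Within a library Dso2 was 8.59 to 14.9 times as high as Dso1, a span of 1.73-fold, whereas Dso1 itself spanned 3.99-fold and Dso2 5.37-fold. The 2 genes lie on chromosome arm 2R on opposite strands, Dso1 from 20868496 to 20869321 (minus) and Dso2 from 20870392 to 20870678 (plus), with 1070 bp between them, and each has 2 exons.

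Among the Bomanins, small secreted peptides that share a short motif, BomS6 was highest. BomS6 ran from 2969 FPKM in library 6 through a median of 6381 FPKM to 24040 FPKM in library 8, and it was second of the 10 genes in every library. Libraries 1 (10114 FPKM) and 3 (10046 FPKM) followed library 8 at a distance. BomS3, one of the short Bomanins first found as an immune-induced molecule of the blood, ranged from 412 FPKM in library 6 through a median of 1015 FPKM to 2765 FPKM in library 8. Here library 3 (2241 FPKM) was close to library 8, so the top was shared. BomS2, another short Bomanin, ranged from 352 FPKM in library 6 through a median of 686 FPKM to 3015 FPKM in library 8, with library 1 next (1347 FPKM). Library 8 stood apart for BomS2 as it did for both Daisho genes.

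BomS5 and BomS1 did not peak in library 8. BomS5, a short Bomanin, had its highest value in library 1 at 1108 FPKM, a median of 749 FPKM and its lowest value of 258 FPKM in library 5. Library 8 was at 919 FPKM, almost level with library 4 at 921 FPKM. BomS1, also a short Bomanin, peaked in library 1 (1261 FPKM), was at 522 FPKM in library 8, had a median of 283 FPKM and was listed at 0 in library 4. Its median was 154 FPKM without library 1 or without library 8, and 148 FPKM without both. The zero in library 4 stood out because BomS2, whose gene starts 2223 bp beyond BomS1, was at 881 FPKM there. BomS2 was 1.07 to 5.78 times as high as BomS1 in the 7 libraries where the ratio exists. BomBc1, a bicipital Bomanin with a pair of Bomanin motifs, was listed at 0 in 5 libraries and otherwise lay between 15.1 FPKM (library 8) and 19.4 FPKM (library 2), with library 7 at 18.1 FPKM. It was the sole member under 1 FPKM in most libraries. The short Bomanins are related in sequence, and how reads that match several of them were assigned is not known here, so the split between BomS1 and its relatives is uncertain.

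**Figure D1:**
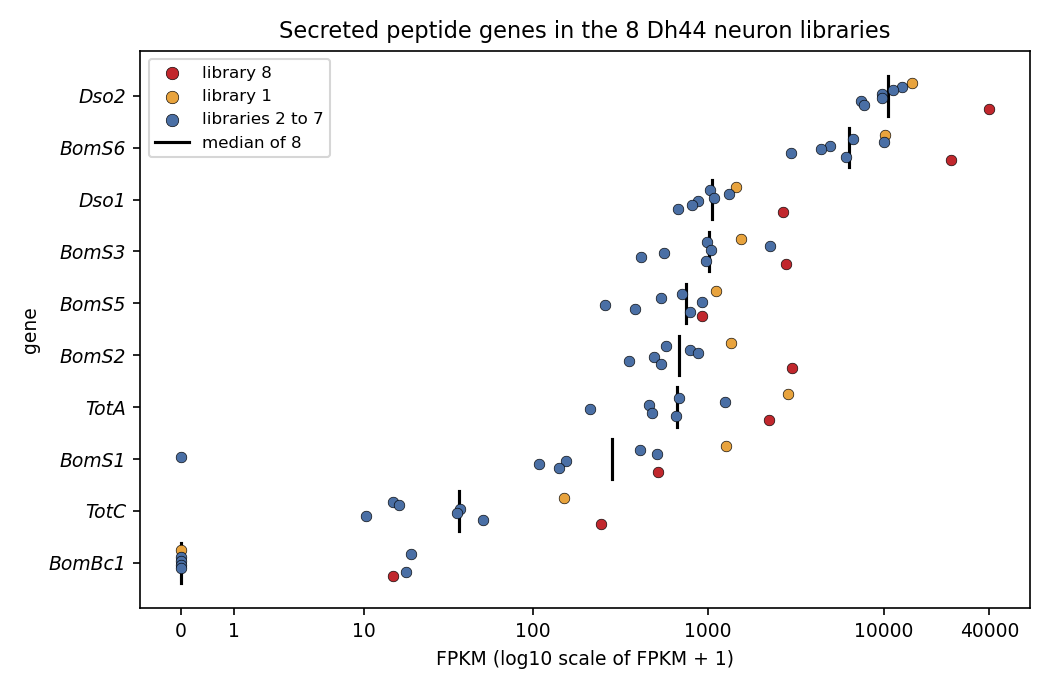
FPKM of the 10 genes (rows, ordered by median) in each library on a log10 scale of FPKM + 1; each point is a library, library 8 in red, library 1 in orange, libraries 2 to 7 in blue, and the black bar is the median of 8. Dso2 and BomS6 lie to the right of the other 8 genes, the red point is the highest for 6 genes, and BomBc1 is at 0 in 5 libraries.

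The 6 Bomanin members lie together on 2R. Coordinates follow Ensembl release 115 for assembly BDGP6.54, and the build the authors used is not named. In it, 9 Bomanin genes with a value fall between 18382704 and 18390629, a span of 7926 bp. From low to high coordinate they are BomBc1 (18382704 to 18383235, minus), BomS1 (18383949 to 18384378, plus), BomS4, BomBc2, BomS2 (18386602 to 18387030, plus), BomS3 (18387895 to 18388734, plus), BomT2, BomS5 (18389959 to 18390242, plus) and BomS6 (18390353 to 18390629, minus). Levels were not graded along the cluster. BomS5 and BomS6 are 110 bp apart on opposite strands, and BomS6 was 5.34 times (library 4) to 26.2 times (library 8) as high as BomS5. BomBc1, at the other end, was the lowest. The exons of none of the 10 members overlap those of another annotated gene, whereas BomS4 and BomBc2 share 88 bp on opposite strands and their values are uncertain to that extent.

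**Figure D2:**
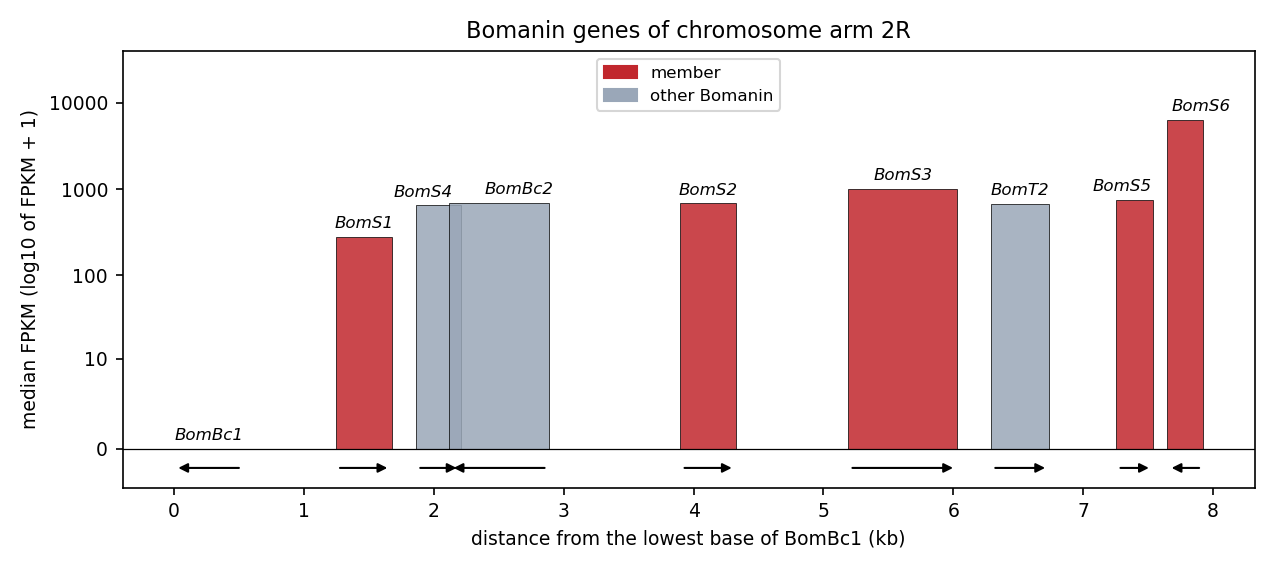
Median FPKM over 8 libraries (log10 scale of FPKM + 1) of the 9 Bomanin genes of 2R with a value, drawn to scale by distance in kb from the lowest base of BomBc1; bar width is gene length, arrows give the strand, members are red and other Bomanins grey. BomS6 at the right end has a median of 6381 FPKM and BomBc1 at the left end a median of 0.

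Bomanins outside the member list were detected as regularly. All 5 with a value reached 1 FPKM in each library. BomBc2, a bicipital Bomanin, had a median of 699 FPKM (345 to 3357), and BomT2, a Bomanin with a C-terminal tail, 681 FPKM (269.8 to 1811). BomS4, a short Bomanin, had a median of 651 FPKM (426 to 2831). The pair on 3R, BomBc3 at a median of 132 FPKM and BomT3 at 106 FPKM, was lower than the 3 of the 2R cluster.

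The Turandot genes ranged from those detected in every library to those listed at 0 throughout. TotA, a secreted stress protein best known from heat and infection, ranged from 211 FPKM in library 5 through a median of 669.7 FPKM to 2864 FPKM in library 1. Libraries 1 and 8 (2231 FPKM) were both above the remaining libraries, the next being library 3 at 1244 FPKM. TotC, its neighbour, ranged from 10.3 FPKM in library 6 through a median of 37.1 FPKM to 245 FPKM in library 8, with library 1 next at 151 FPKM. TotA exceeded TotC in every library, but by 5.83 times in library 5 and 76.1 times in library 3, a wider span than for the Daisho pair. Both lie on 3R on the plus strand, TotA from 20871036 to 20871700 and TotC from 20872988 to 20873580, 1287 bp apart. Of the other 6 Turandot genes, TotM alone reached 1 FPKM in at least 4 libraries, and it did so in all 8 (median 150 FPKM, 12.6 to 240.1). TotB, TotF and TotZ were listed at 0 in all 8 libraries, although TotB lies in the same stretch of 3R as TotA and TotC. TotE stayed below 1 FPKM, and TotX was listed at 0 in 5 libraries.

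The order of the levels was firm at the top and loose in the middle. Dso2 exceeded BomS6 in 8 of 8 libraries by 1.13 to 2.51 times, although their ranges overlapped across libraries. BomS6 exceeded Dso1 in 8 of 8 libraries without any overlap of ranges, with medians 6.06 times apart. Dso1 and BomS3 could not be ordered, since Dso1 was higher in 4 of 8 libraries. BomS3 exceeded BomS5 in 8 of 8 libraries. BomS5 and BomS2 (4 of 8 libraries) and BomS2 and TotA (3 of 8 libraries) were likewise not separated. TotA exceeded BomS1 in 8 of 8 libraries, BomS1 exceeded TotC in 7 and TotC exceeded BomBc1 in 7. The 3 members Dso2 (223 bp of exon), BomS5 (218 bp) and BomS6 (198 bp) are shorter than the fragments of about 250 bp, where FPKM can be extreme. When FPKM was multiplied by annotated exon length, Dso2, BomS6, Dso1 and BomS3 kept the first 4 places, TotA moved up to the fifth place and BomS5 down to the seventh. The members' median share was 0.386% on that scale, against 2.35% on the FPKM scale. Dso1 and BomS3 have a second, longer annotated transcript, and with the shortest transcript as length TotA took the fourth place ahead of BomS3.

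The members were high in much the same libraries. In library 8 all 10 were above their median in the other 7 libraries, beside 30.7% of the 8235 genes above 0 anywhere, and the median member lay 1.87 above them on the log2(FPKM + 1) scale while the median expressed gene lay below (-1.04). The fold of library 8 over the median of the other 7 libraries was 4.06 for Dso2, 2.61 for Dso1, 5.21 for BomS2, 3.94 for BomS6, 2.79 for BomS3, 3.39 for BomS1, 3.42 for TotA, 6.77 for TotC and 1.29 for BomS5. No fold is given for BomBc1, whose median there was 0. In library 1, 9 of 10 were above their median in the other libraries, beside 19.5% of genes. The median difference there was 0.68, against -2.01 for the median expressed gene. Expressed genes listed at 0 in a library enter the -1.04 and -2.01, whereas 8 of the 10 members were above 0 everywhere. A gene listed at 0 in a library cannot be above its median there. With 3798 genes at 1 FPKM or more in library 8 and 2518 in library 1, this holds the 30.7% and 19.5% down. Shares among the genes detected in each library were not computed. For the 1530 genes above 0 in every library, the median fold over a gene's geometric mean was 1.01 in library 1 and 0.846 in library 8. The median library had 1.14, so -1.04 and -2.01 overstate the contrast with such genes. The excess in library 1 was strongest for BomS1 (8.19 times the median of the others), TotA (4.39 times) and TotC (4.16 times), and weaker for Dso2 (1.47 times) and Dso1 (1.40 times). Of the members 6 were highest in library 8, beside 12.8% of genes, and 3 in library 1, beside 10.2%, which makes 9 for the pair of libraries, beside 23.0%. In library 5 the median member difference was -0.64, against 0.17 for the median expressed gene, and in library 6 it was -1.10, against 0.03. A gene listed at 0 in a library cannot be highest there, so the 12.8%, 10.2% and 23.0% are held down too. That some members are highest in library 8 was known when they were chosen, and no test is attached to these counts.

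**Figure D3:**
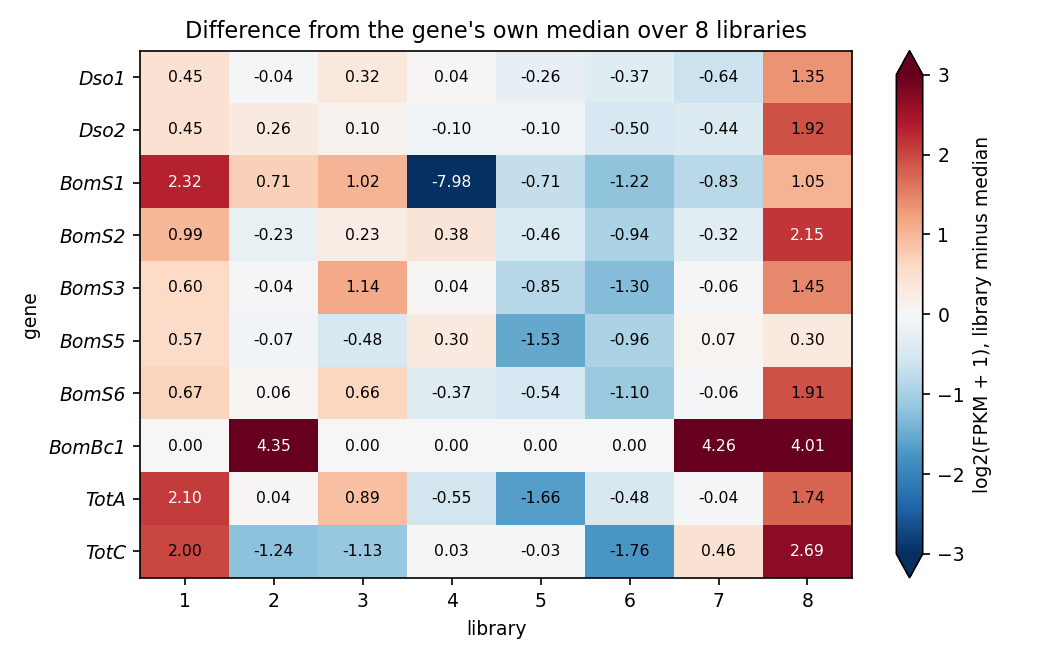
Difference of each library from the gene's own median over the 8 libraries, in log2(FPKM + 1), for the 10 genes (rows) and 8 libraries (columns); red is above and blue below the median, and colours are capped at 3. The column of library 8 is above 0 for all 10 genes, from 0.30 for BomS5 to 4.01 for BomBc1, and the columns of libraries 5 and 6 hold no value above 0.

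Spread between libraries differed among the members. The SD of log2(FPKM + 1) over 8 libraries was 0.62 for Dso1 and 0.72 for BomS5, close to the median of up to 201 genes of similar mean level (0.58 and 0.72). It was 0.77 for Dso2 and 0.93 for BomS6, above the 0.36 and 0.37 of genes at their level. BomS2 (0.98), BomS3 (0.93) and TotA (1.25) also exceeded genes at their level (0.68, 0.58 and 0.68). BomS1 had the largest SD, 3.17, which contains its zero in library 4. TotC, at 1.57, lay below genes of its level (2.04).

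The yolk protein genes, expressed in fat body and ovary, were highest in the same libraries as the peptide genes. Yp1, Yp2 and Yp3 together held 6.77% of summed FPKM in library 8, 6.68% in library 1 and 1.46% to 4.50% in libraries 2 to 7. Summed FPKM of the 10 members over that of the 3 yolk genes lay between 0.631 (library 1) and 1.41 (library 4), a span of 2.24-fold. The members' share itself spanned 5.53-fold, and their summed FPKM over that of Dh44 spanned 19.0-fold, from 0.153 in library 6 to 2.90 in library 8. Of the 10 fat body markers with a value, 6 or 7 were at 1 FPKM or more in a library. Their summed level was 68600 FPKM in library 8, 56850 FPKM in library 1 and 14284 to 41731 FPKM in libraries 2 to 7. Most of it came from the 3 yolk genes, so the sum is not a separate measure. Lsp2 (5104 FPKM), Ilp6 (160 FPKM) and srp (45.5 FPKM) were highest in library 8. In library 1, however, Ilp6 was listed at 0 and srp was lowest (2.95 FPKM), and Cyp4g1 was listed at 0 in library 8. The fat body genes Lsp1gamma and Fbp2 were listed at 0 in all 8 libraries, Fbp1 reached 1.23 FPKM in library 8 alone, and Lsp2 had a median of 958 FPKM. The sum of the photoreceptor markers was also highest in library 8, at 7888 FPKM against 772 to 2170 FPKM in libraries 1 to 7. Rh5 alone gave 3995 FPKM of it, and ninaE, Rh4, Arr2, trp and ninaC were highest there too. Rh3, Rh6 and inaD were listed at 0 in library 8, however, and Arr1 and trpl were highest in library 1. Summed hemocyte markers were highest in library 1 (480.1 FPKM), followed by library 4 (249 FPKM) and library 8 (199 FPKM). Glial markers spanned 48.1 to 350 FPKM and muscle markers 27.7 to 149 FPKM, both with the highest value in library 3. The part of any other cell type in the peptide levels was not tested, and fewer cells of a type and less RNA per cell cannot be told apart in such libraries.

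**Figure D4:**
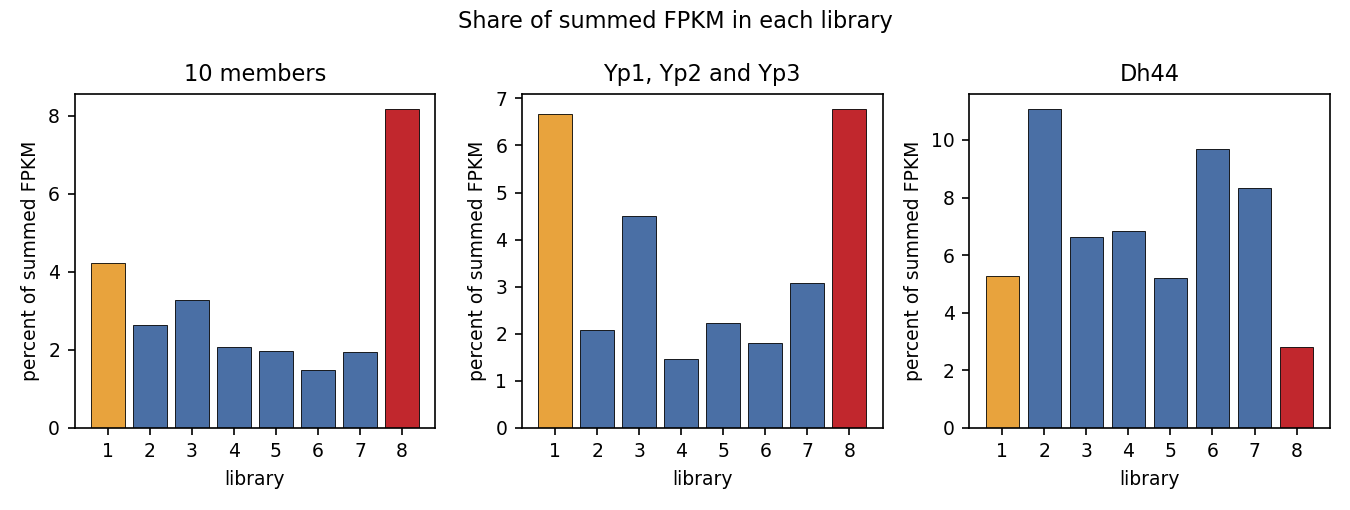
Percent of summed FPKM held in each library by the 10 members (left), by the yolk protein genes Yp1, Yp2 and Yp3 (middle) and by Dh44 (right); library 8 is red, library 1 orange and the rest blue, and each axis starts at 0. Library 8 has the largest share of members (8.16%) and of yolk protein genes (6.77%) and the smallest share of Dh44 (2.81%).

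The genes with the most similar profile were named by the mean absolute difference, over 8 libraries, of log2(FPKM + 1) centred on each gene's own median, among the expressed genes. All libraries enter each profile, so this is a likeness within one set of samples. For Dso2 they were Got2 (0.19), BomS4 (0.19) and CG6503 (0.25), against 1.59 for the median gene. For Dso1 they were RpL32 (0.23), RpL40 (0.24) and FBgn0261593 (0.25). BomS2 was closest to Got2 (0.21), CG16704 (0.22) and CG10570 (0.26), and BomS6 to CG10570 (0.24), CG6503 (0.27) and Got2 (0.28). BomS3 was closest to fok (0.25), BomT2 (0.28) and Obp99b (0.29). BomS5 was closest to Nacalpha (0.35), wal (0.38) and CG5273 (0.39). TotA was closest to Lsd-1 (0.41), CG16926 (0.42) and CG34166 (0.43), and TotC to FBgn0037744 (0.49), CG10680 (0.51) and CG16756 (0.62). BomS1 (CG13365, CG7970 and Tis11, at 1.01 to 1.10) and BomBc1 (l(1)G0289, CG11737 and Spred, at 0.98 to 1.38) had no close partner. The zero of BomS1 in library 4 gives -7.98 on the centred scale and enters all its distances, so they depend strongly on that 1 library. Between members, Dso1 with Dso2 (0.21) and BomS3 with BomS6 (0.26) were the most alike pairs. In likeness to the 9 members other than BomBc1, Yp1 ranked between 4 (TotA) and 283 (BomS5) of 3151 genes. Lsp2, another fat body marker, ranked between 20 (TotA) and 589 (BomS5), and the photoreceptor gene ninaE between 32 (TotC) and 507 (BomS5). Dh44 ranked between 428 (BomS5) and 777 (TotC), and the neuronal marker Appl between 521 (BomS5) and 952 (BomS1). For BomS5, Dh44 was thus nearer than Lsp2 and ninaE. For BomBc1, Dh44 ranked 200, ninaE 226, Yp1 232, Lsp2 278 and Appl 387 of 3152 genes.

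Genes of the Toll pathway had lower median FPKM than the peptides, with TotC (37.1 FPKM) and BomBc1 (0 FPKM) excepted. Of 21 Toll genes with a value, 15 reached 1 FPKM in at least 4 libraries, beside 41.2% of all genes, and 5 in all 8, beside 11.0%. SPE, the protease that activates Spätzle, led with a median of 92.9 FPKM (30.9 to 289.9). Next came aPKC, a kinase placed downstream of the receptor, at 36.0 FPKM and the receptor Tl at 33.8 FPKM (2.15 to 73.0). The NF-kB factor Dif was at 23.1 FPKM, the adaptor tub at 22.2 FPKM, the protease inhibitor nec, which restrains the cascade, at 19.3 FPKM, the Pellino gene Pli at 18.1 FPKM and the transcription factor Deaf1 at 14.0 FPKM. In library 8, 14 of the 21 were above their median in the other libraries, beside 30.7% of genes above 0 anywhere. SPE (256.5 FPKM) was among the 14, whereas Tl was low there at 13.3 FPKM. Genes listed at 0 in library 8 cannot be above their median, which lowers the 30.7% here and for the lists below. Whether the 14 exceed the share among genes detected in library 8 was not tested.

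The Imd pathway, which answers to Gram-negative bacteria, and JAK-STAT signalling were detected in part. Of 17 Imd genes with a value 10 reached 1 FPKM in at least 4 libraries, beside the same 41.2%, led by the kinase gene bsk (181 FPKM), and in library 8, 9 of the 17 were above their median in the other libraries, beside 30.7%. The others named by median were key (20.7 FPKM) and PGRP-SB1 (20.4 FPKM), imd (12.7 FPKM) and the receptor PGRP-LC (6.84 FPKM), then the NF-kB factor Rel (5.28 FPKM), the kinase Tak1 (3.23 FPKM) and the transcription factor cad (1.99 FPKM). Of 15 JAK-STAT and stress kinase genes 11 passed the same threshold, beside 41.2%. Stat92E, the transcription factor of the pathway, had a median of 44.6 FPKM and was highest in library 8 at 148 FPKM. Of the 13 genes of this list above 0 anywhere, 3 were above their median in the other libraries there. That is close to the 30.7% of all such genes and sets the list apart in neither direction. The median difference over all 15 genes was -0.32 on the log2 scale. The same median was -1.04 over the expressed genes and 0 over all genes with a row. The 15 were not limited to expressed genes, and 2 of them were listed at 0 throughout. The Jun gene Jra (43.9 FPKM), the STAT inhibitor Su(var)2-10 (28.1 FPKM) and the phosphatase puc (27.0 FPKM) followed. Ptp61F (16.8 FPKM), Socs36E (16.2 FPKM), a target and inhibitor of JAK-STAT, the Fos gene kay (15.3 FPKM) and lic (15.05 FPKM) were lower. The ligand genes upd2 and upd3 were listed at 0 in all 8 libraries. SPE and IM18 share exonic bases with a gene of their own strand, and Dif, aPKC, imd, key, Ptp61F and Jra with one of the opposite strand, so those values are uncertain.

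None of the 13 classical antimicrobial peptide genes with a value was highest in library 8, beside 12.8% of genes above 0 anywhere. With 8 of the 13 above 0 in some library, that count is near this share. Of these, 3 reached 1 FPKM in at least 4 libraries, beside 41.2% of all genes, none in all 8, and Def, AttD, CecA1, CecA2 and CecB were listed at 0 throughout. The attacin gene AttA had a median of 112 FPKM and its highest value of 294 FPKM in library 4, but was at 6.98 FPKM in library 8 and listed at 0 in library 1. The drosocin gene Dro had a median of 39.6 FPKM and lay at 4.16 FPKM in library 8, against 252 FPKM in library 1. Drs, the drosomycin gene and a textbook Toll target, was at 443 FPKM in library 4, listed at 0 in 4 libraries including library 8, and had a median of 14.2 FPKM. In library 8 none of the 13 was above its median in the other libraries, beside 30.7% of the genes above 0 anywhere, where 8 of these 13 were above 0 in some library. The 4 remaining immune-induced genes that passed the threshold were the transferrin gene Tsf1 (136 FPKM), the clotting gene fon (14.9 FPKM), BaraC (1.52 FPKM) and IM18 (1.02 FPKM). BaraC and IM18 passed in 4 libraries with library 8 among them, so the threshold partly fixed that they were high there. Of the 6 genes of this list with a value, 4 were above 0 in some library. These 4 were above the median of the others in library 8, beside 30.7% of genes. This difference between antimicrobial peptides and Bomanins in library 8 was not tested, since that library has no replicate.

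**Figure D5:**
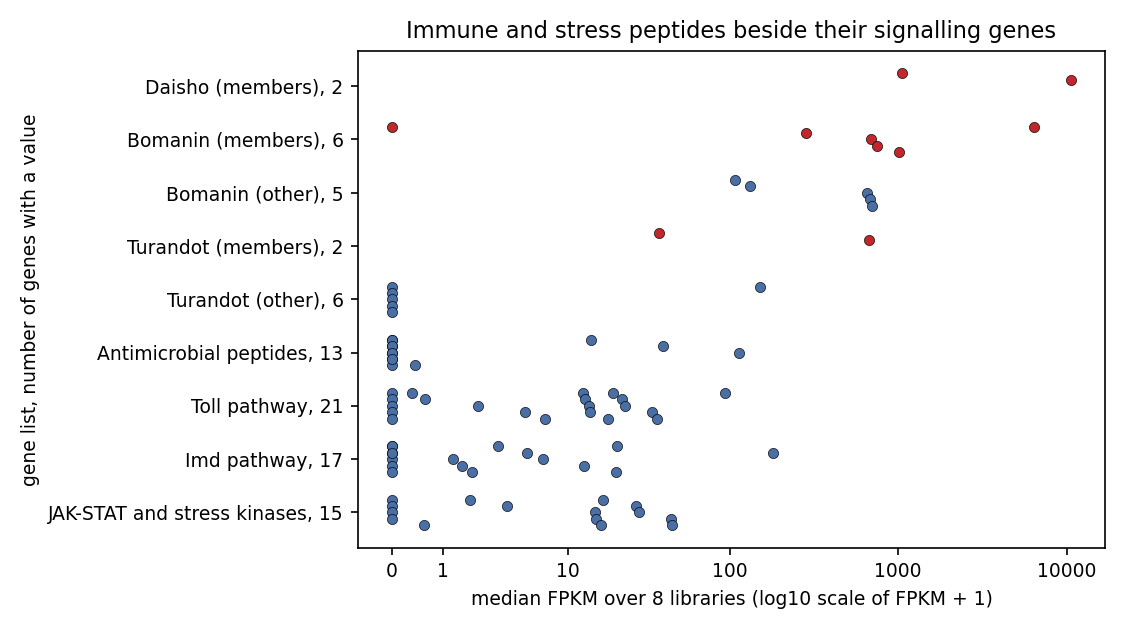
Median FPKM over 8 libraries (log10 scale of FPKM + 1) of each gene, by gene list, with the number of genes with a value beside each list name; members are red and all other genes blue. Daisho and all Bomanin genes but BomBc1 lie above 100 FPKM, whereas 1 of 13 antimicrobial peptide genes and 1 of 6 other Turandot genes do.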

How the data were processed

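The authors deposited 1 FPKM value per gene for each of 8 libraries. Per the labels' protocols, cDNA was amplified with a modified SMART-seq2 protocol, sheared to about 250 bp and amplified by 12 cycles of PCR, and reads were cleaned and mapped to the fly genome. TopHat is named in the submitters' processing notes. Its version and role, the build, annotation, quantifier and strand setting were not given in the sources used here. Depth is unknown: 105 values above 0 lay below 1e-10, so whole reads were not recovered and no counting interval is given.

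Identifiers were matched to symbols with the supplied gene table (11646 of 11773). Medians, ranges and counts were computed with pandas 2.3.3 (Python 3.11.15) and checked on simulated profiles. Logs are log2(FPKM + 1), with a pseudocount of 1. With 1 group and no named animals, no test between groups was possible and every spread is between libraries; gaps of single libraries were set beside a critical value of Dixon as a description. The members and lists were chosen with earlier results of these data known. Named genes were the 10 members, up to 8 genes per list by median among those at 1 FPKM or more in at least 4 libraries, and the 3 most similar genes per member. No sequences are shown.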

Additional observations from a re-analysis of the deposited data

Results flagged for a closer look

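For 59 items (the 10 members, the named list genes, 5 marker genes and 7 library measures), the gap between the most extreme library and its nearest neighbour was divided by the whole range, and for 16 items this exceeded 0.526, the 95% critical value of Dixon for 8 samples. About 1 in 20 normal samples would do so by chance, and FPKM has a long upper tail. The members were chosen with their peaks in library 8 known and the shares and ratios restate their values, so for them the gap is a description to which this chance rate does not apply, and the items are not independent of each other.

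Library 8 gave 11 of them, all on the high side. Among the members these were Dso2 at 39937 FPKM, BomS6 at 24040 FPKM, BomS2 at 3015 FPKM and Dso1 at 2685 FPKM. BomS4, a further Bomanin, stood out at 2831 FPKM. The members' share of summed FPKM stood out at 8.16%, the Daisho share at 4.56% and the ratio of members to Dh44 at 2.90. PGRP-SB1, a peptidoglycan recognition protein gene, was at 205 FPKM, Tsf1 at 606 FPKM and Stat92E at 148 FPKM.

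Library 1 gave 4, all high: BomS1 at 1261 FPKM, aPKC at 393 FPKM, nec at 181 FPKM and PGRP-LC at 42.3 FPKM. Drs stood out in library 4 at 443 FPKM.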

How the results depend on the processing

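The members' median share of 2.35% ranged from 2.06% to 2.63% when each library was left out, and was 2.02% without libraries 1 and 8, a setting chosen after seeing the data. It was 2.86% without ribosomal protein genes, 2.45% without other genes under 250 bp of exon and 1.90% with a library scale factor. With exon length removed it was 0.386%, a share of fragments rather than of FPKM. The SD between libraries was 2.18, nearly as large as the median, so it is a loose bound. The count of members at 1 FPKM or more in every library stayed at 8, at 0.1 and 5 FPKM and without libraries 1 and 8, was 7 at 100 FPKM and 9 without library 4, where BomS1 was listed at 0. Members highest in library 8 numbered 6, and 7 with the scale factor, where BomBc1 joined them. The median member difference of library 8 (1.87) ranged from 1.83 to 2.01 when another library was left out, was 1.91, 1.89 and 2.34 under the 3 scalings and 1.88 and 1.73 with pseudocounts of 0.1 and 10. The median expressed gene there was -1.04, and 0 over all genes. The median of BomS1 was 283 FPKM, but 154 FPKM without library 1 or without library 8 and 148 FPKM without both. All 50 alternatives kept the members' medians within 1 SD, which for BomS1 (404 FPKM) exceeds the median. Of 83 listed immune genes 49 were at 1 FPKM or more in at least 4 libraries, 39 at 5 FPKM and 43 without libraries 1 and 8. No paired analysis was possible because all libraries belong to 1 group. Unknown depth limits low values such as BomBc1.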

Other observations

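Genes chosen after their values were seen gave high FPKM in few libraries. TotX reached 182 FPKM in library 8, with 69.8 FPKM in library 2 and 21.0 FPKM in library 7. AttC peaked in library 6 (95.2 FPKM), the cecropin gene CecC in library 3 (88.0 FPKM) with library 7 next (46.2 FPKM), and the metchnikowin gene Mtk in library 3 (73.5 FPKM). The Imd inhibitor PGRP-LB was at 185 FPKM in library 1 and listed at 0 in 5 libraries.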
